A study of Homo sapiens with 6 samples.

Results

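The enzymes that supply DNA replication with deoxynucleotides were followed in HCCLM3-SR cells in which cDCBLD2 had been knocked down. The members are RRM1, RRM2, TYMS, TK1, DUT, SAMHD1 and DCK, taken by symbol, and all 7 were found among the 38637 genes of the deposited expression table. HCCLM3 is a metastatic human hepatocellular carcinoma (HCC) line, and HCCLM3-SR is its derivative made resistant to sorafenib, a multikinase inhibitor, by growth in rising doses over months. Both groups were HCCLM3-SR cells given 5 µM sorafenib and an siRNA for 3 days. In the knockdown group (3 libraries) the siRNA was directed at cDCBLD2, a circular RNA of the DCBLD2 gene, and in the control group (3 libraries) it was a control siRNA. All 6 libraries came from 1 cell line, the knockdown was a transient transfection, and no group without sorafenib was sequenced in these libraries. The labels do not say whether replicates were separate cultures, so p-values measure the spread between these libraries, which may be technical.

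Deoxynucleotides are made de novo and by salvage. In the de novo route, ribonucleotide reductase, a complex of the large catalytic subunit RRM1 and the radical-bearing small subunit RRM2, reduces ribonucleoside diphosphates to deoxyribonucleoside diphosphates. Thymidylate synthase (TYMS) then methylates dUMP to dTMP, and dUTPase (DUT) removes dUTP and provides the dUMP. In the salvage route, the cytosolic kinases TK1 and DCK phosphorylate thymidine and other deoxynucleosides taken up from outside. SAMHD1 works in the opposite direction and hydrolyses deoxynucleoside triphosphates. Most of the genes on the supply side are known for high expression in S phase of proliferating cells.

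The sequences that bear on these genes are shown here, because members that move together may share promoter motifs and because the study examined cDCBLD2 as a binding partner of miR-345-5p. The mature microRNA is given from RefSeq with its seed, bases 2 to 8, in capitals. Its gene position is chr14:100307876-100307897 on the + strand of GRCh38.p14. The only match to this seed among the coding transcripts of the 7 genes in GENCODE 29 is printed on the second line, with the match GAGTCAG in capitals.
hsa-miR-345-5p: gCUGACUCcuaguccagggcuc
RRM1, transcript ENST00000534285.5: ccggaaatgctGAGTCAGggtgtccgagg

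The match starts at position 173 of a transcript of 2075 bases that is 1 of 2 coding transcripts of RRM1 and not the longest. The longest coding transcript of each of the 7 genes, RRM1 included, holds 0 matches. None of the 5 coding transcripts of RRM2, 3 of TYMS, 8 of DUT, 5 of TK1, 4 of DCK or 6 of SAMHD1 holds one. Gene-level values do not separate the RRM1 transcripts, so the site was not read out here.

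All 7 genes matched the RefSeq promoter table (GRCh38.p14). The 250 bases before each listed start were searched on both strands for an E2F motif (TTTGGCGC, TTTCCCGC, TTTGCCGC or TTTCGCGC), the NF-Y motif CCAAT, the SP1 motif GGGCGG and the cell-cycle homology region motif TTTGAA. E2F, NF-Y and SP1 are transcription factors known for binding at promoters of proliferation genes. The last 130 bases before the start are printed 5′ to 3′ for 6 of the genes, with E2F and NF-Y matches in capitals.
RRM1, chr11:4094555-4094684 (+ strand): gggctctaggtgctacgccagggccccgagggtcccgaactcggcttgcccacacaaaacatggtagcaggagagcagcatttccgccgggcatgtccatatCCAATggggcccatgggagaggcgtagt
RRM2, chr2:10122609-10122738 (+ strand): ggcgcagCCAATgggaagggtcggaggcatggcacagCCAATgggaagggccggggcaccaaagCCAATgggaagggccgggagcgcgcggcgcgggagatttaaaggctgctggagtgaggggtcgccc
TYMS, chr18:657523-657652 (+ strand): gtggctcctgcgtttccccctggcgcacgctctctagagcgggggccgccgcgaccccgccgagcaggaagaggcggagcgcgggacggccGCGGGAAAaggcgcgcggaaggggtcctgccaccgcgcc
DUT, chr15:48332067-48332196 (+ strand): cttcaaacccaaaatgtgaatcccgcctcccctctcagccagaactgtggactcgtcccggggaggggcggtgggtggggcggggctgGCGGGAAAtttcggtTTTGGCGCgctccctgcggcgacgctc
TK1, chr17:78187053-78187182 (- strand): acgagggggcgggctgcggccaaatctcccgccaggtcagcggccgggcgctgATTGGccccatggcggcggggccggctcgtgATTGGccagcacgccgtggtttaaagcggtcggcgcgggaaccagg
SAMHD1, chr20:36951709-36951838 (- strand): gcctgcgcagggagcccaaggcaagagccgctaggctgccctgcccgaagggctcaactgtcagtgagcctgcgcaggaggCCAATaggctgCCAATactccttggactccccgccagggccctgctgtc

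TYMS has 1 E2F match, 39 bases before its start, and 1 of the 4 listed DUT starts has 2, at 42 and 27 bases. These are the 2 genes with an E2F match, and 2.79% of all 35116 promoters in the table hold one. CCAAT in either orientation was found 3 times in front of the RRM2 start shown (123, 93 and 66 bases before it), 2 times at TK1 (77 and 46 bases), 2 times at SAMHD1 (49 and 38 bases) and 1 time at RRM1 (28 bases). Of all promoters, 32.0% hold a CCAAT, 42.6% a GGGCGG and 13.3% a TTTGAA, so these letters are common. The DCK window held 3 SP1 matches and no E2F or NF-Y match. Of the starts shown, RRM1 had 1 SP1 match and DUT and TK1 had 2 each, and RRM2, TYMS and SAMHD1 had none. Other listed starts of RRM2, DUT and TK1 also held SP1 matches. TTTGAA in either orientation was found at RRM1 (199 bases before the start) and at the DUT start shown (214 and 129 bases). A match is a description of the letters and not evidence of binding.

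RNA was measured as PolyA-Seq, which sequences polyadenylated RNA, and the authors deposited an abundance per gene in TPM, in which reads are divided by gene length and each library sums to the same total. Whole reads, worked back from the proportions between the 6 values of a gene, came to between 17492673 and 23064302 per library, as lower bounds. The cell line was checked against its markers. KRT8, KRT18 and HNF4A had means of 3533, 2132 and 26.2 TPM, whereas the liver products ALB, AFP, APOA1 and TTR stood at 0.86, 1.25, 0.50 and 0.86 TPM. The 12 liver markers, of which 6 reached a mean of 1 TPM, summed to 5840 to 7009 TPM in knockdown and 4830 to 5649 TPM in control libraries, mostly from the keratins. Of the leukocyte markers 2 of 6 reached 1 TPM, CD3E was at 0 in all libraries and the sums were 103 to 131 and 95.03 to 116 TPM, mostly CD68. The fibroblast list (3 of 7 at 1 TPM, mostly LUM) summed to 32.3 to 77.1 and 30.1 to 43.8 TPM, and the endothelial list (1 of 4, PECAM1) to 4.54 to 5.19 and 3.75 to 5.79 TPM. The part of these lists in the results was not tested. The circular RNA is not read out by gene-level values. Its host gene DCBLD2 measured 58.1, 25.9 and 31.6 TPM in the knockdown libraries, in order of replicate number, and 71.5, 48.5 and 50.7 TPM in the controls.

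The comparison asked how mRNA levels differed between knockdown and control cells. By TPM, which is per length, the order of levels was TK1, TYMS, RRM1, DUT, RRM2, DCK and SAMHD1 in each of the 6 libraries, although over the libraries the ranges of TK1 and TYMS overlapped, as did those of RRM2 with both DUT and DCK. No gene of the 7 passed the test across all genes without a replicate block. With the replicate number as a block, RRM1, SAMHD1, TYMS, DUT and DCK fell, and their knockdown means were between 72.5% and 84.6% of the control means. RRM2 missed the threshold with the block, and TK1 was at 98.4% of its control mean. In bulk RNA, fewer cells in S phase and less RNA per cell cannot be told apart. The test was limma on log2(TPM + 1) over 13980 genes (mean of 1 TPM or more), with Benjamini-Hochberg adjusted p. Without the block 0.88% of genes tested were called in either direction, 35 higher and 88 lower, or 28.5% higher, against 59.0% higher under median-of-ratios scaling. With the block 25.0% of genes tested fell and 28.4% of the calls were higher. Same-numbered libraries deviated together from their group means, and the blocked value is therefore given beside each result whose call it changes. The pairing was less distinct for replicates 2 and 3. Their deviations correlated at 0.343 and 0.362 for equal numbers, and at 0.215 (knockdown 2 with control 3) and 0.247 (knockdown 3 with control 2) when crossed.

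**Figure D1:**
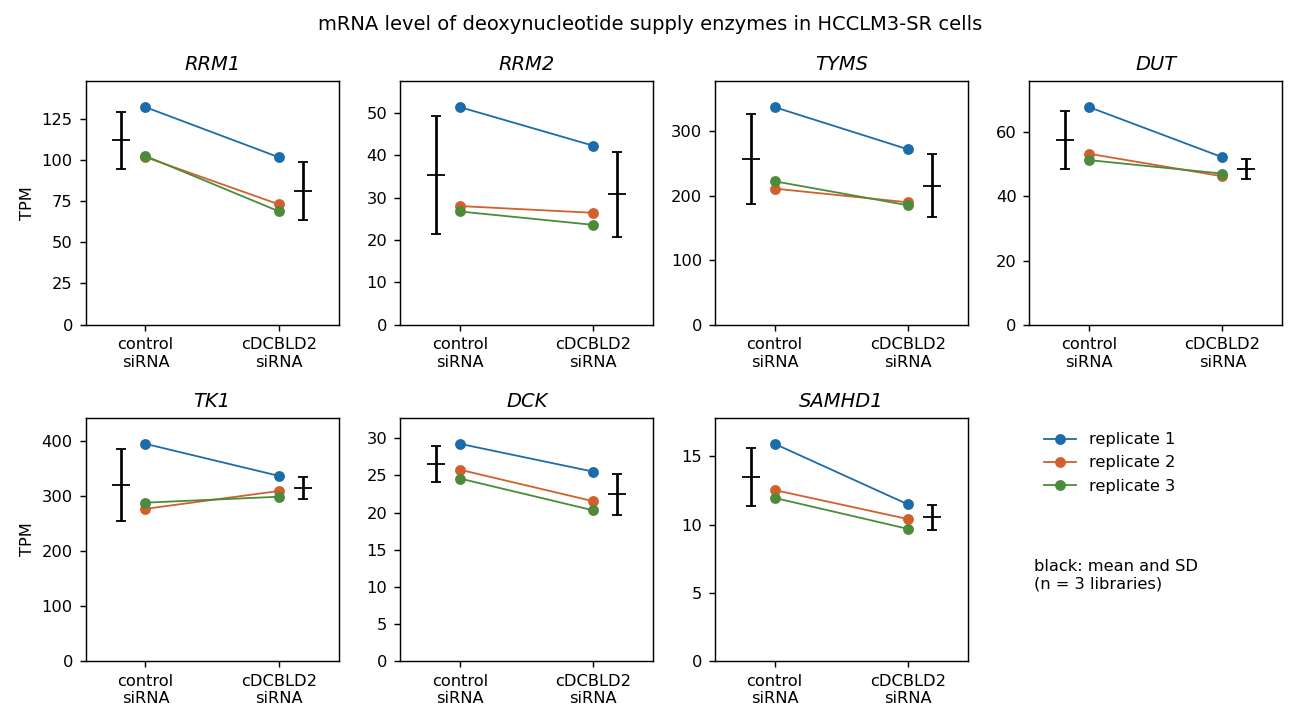
TPM of each of the 7 genes (y axis, from 0) in control and cDCBLD2 siRNA libraries. Points are single libraries, lines join libraries with the same replicate number, and black marks are the mean and SD of 3 libraries. In 6 genes all 3 lines go down, whereas 2 of the 3 TK1 lines go up, and replicate 1 is the highest library of its group in all 7 genes.

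RRM1, the large subunit of ribonucleotide reductase, lies at chr11:4094707-4138876 on the + strand (GRCh38, GENCODE 29). Knockdown replicates 1, 2 and 3 measured 102, 73.0 and 68.7 TPM and the controls of the same numbers 132, 102 and 102 TPM, from 2155 to 3186 reads per library. The knockdown mean was 81.1 ± 17.8 TPM and the control mean 112 ± 17.3 TPM (SD, n = 3), and the groups did not overlap, although by a narrow margin, since knockdown replicate 1 (101.54 TPM) sat just under the lowest control library (101.58 TPM). The log2 fold change was -0.47 (SE 0.17, 95% interval -0.89 to -0.05) with an adjusted p of 0.157 in limma, and the blocked fit gave the same fold change with an SE of 0.05 and an adjusted p of 0.00552. Within the pairs the log2 differences were -0.37, -0.47 and -0.57. RRM1 fell in each of the 8 blocked fits run, which differed in scaling, GC correction, use of recovered reads or the pair left out, with adjusted p between 0.0011 and 0.0451. An exact permutation test of the 3 against 3 libraries gave p = 0.1, the smallest value it can give.

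RRM2, the small subunit whose level follows the cell cycle in textbook accounts, lies at chr2:10120698-10131419 (+). Its values were 42.2, 26.4 and 23.6 TPM in knockdown and 51.3, 27.98 and 26.7 TPM in control replicates 1, 2 and 3. Replicate 1 was high in both groups and the groups overlapped. The means were 30.7 ± 10.1 and 35.3 ± 13.9 TPM (SD, n = 3), and the log2 fold change was -0.18 (SE 0.31, 95% interval -0.92 to 0.56, adjusted p = 0.746). The difference had the same sign in all 3 pairs (-0.28, -0.08 and -0.17), and the adjusted p with the block was 0.0729, short of the threshold. RRM2 was called in 0 of the 8 blocked fits.

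The stoichiometry of the subunit mRNAs was compared within libraries, because a ratio of this kind does not depend on library scaling. None of the ratios was corrected for transcript GC content. RRM2 to RRM1 was 0.416, 0.362 and 0.343 in knockdown and 0.389, 0.275 and 0.261 in control replicates 1, 2 and 3. The ratio was higher in the knockdown library of each pair, with a mean log2 difference of 0.29, but the groups overlapped (exact permutation p = 0.3, adjusted p = 0.5 over the 5 ratios computed). RRM2B, the p53-regulated small subunit that serves DNA repair and non-dividing cells, had 9.89, 3.75 and 5.07 TPM in knockdown and 13.8, 9.95 and 10.3 TPM in control libraries, from 178 to 469 reads. Its groups did not overlap, and the log2 fold change was -0.85 (adjusted p = 0.153, or 0.013 with the block). With the GC correction it was -0.54, without knockdown replicate 2 it was -0.59, and the blocked call was lost without pair 2 (adjusted p = 0.054) or pair 3 (adjusted p = 0.078). Knockdown replicate 2 was the lowest library of RRM2B and knockdown replicate 1 lay just below the controls. RRM2 to RRM2B was 4.27, 7.05 and 4.64 in knockdown and 3.72, 2.81 and 2.59 in control libraries, a log2 difference of 0.79 with groups that did not overlap (exact permutation p = 0.1, the smallest possible, adjusted p = 0.5). The differences within pairs were 0.20, 1.33 and 0.84, so the size of the difference in this mRNA ratio varied widely between pairs.

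**Figure D2:**
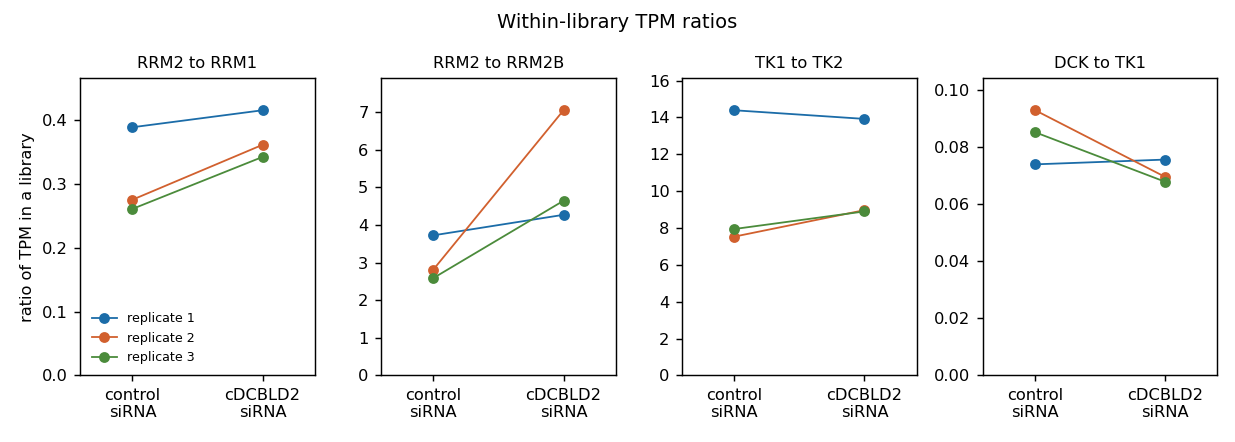
Within-library TPM ratios (y axes, from 0) of 4 gene pairs in control and cDCBLD2 siRNA libraries, 1 point per library with lines joining equal replicate numbers. RRM2 to RRM2B is the only pair of the 4 in which every knockdown ratio lies above every control ratio.

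TYMS, the target of fluoropyrimidine drugs, lies at chr18:657604-673578 (+). It stood at 272, 189 and 185 TPM in knockdown and 337, 211 and 222 TPM in control replicates 1, 2 and 3. Replicate 1 was the highest library of either group and the groups overlapped. The means were 215 ± 48.7 and 256 ± 69.8 TPM (SD, n = 3), and the log2 fold change was -0.24 (SE 0.22, 95% interval -0.78 to 0.29, adjusted p = 0.522), and with the block the SE was 0.05 and the adjusted p 0.0148. TYMS was lower in the knockdown library of each pair, by log2 differences of -0.31, -0.15 and -0.26. Without the block, the log2 fold change was -0.03 when control replicate 1 was left out and -0.42 when knockdown replicate 1 was. In GENCODE 29, 39.1% of its exon bases lie opposite exons of ENOSF1 on the other strand, and the strand setting of the authors' counting is not given in the sources used here. ENOSF1 was at 40.1, 28.5 and 28.6 TPM in knockdown and 49.8, 33.5 and 34.7 TPM in control replicates, a log2 fold change of -0.27 (adjusted p = 0.422, or 0.0149 with the block). The blocked call of ENOSF1 was lost with the GC correction (-0.12, adjusted p = 0.172) and under median-of-ratios scaling (-0.17, adjusted p = 0.058). Reads of TYMS and ENOSF1 may therefore not be separate measurements. TYMSOS, a bidirectional non-coding transcript that shares 183 exon bases, was at 7.80, 12.01 and 9.48 TPM in knockdown and 13.98, 12.7 and 11.2 TPM in control libraries (log2 fold change -0.35, adjusted p = 0.233, or 0.116 with the block). With the GC correction and the block it was at -0.47 (adjusted p = 0.043).

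DUT, the dUTPase, lies at chr15:48331011-48343373 (+). It had 52.2, 46.2 and 47.1 TPM in knockdown and 67.8, 53.3 and 51.3 TPM in control replicates 1, 2 and 3. Only knockdown replicate 1 reached into the control range. The means were 48.5 ± 3.21 and 57.4 ± 9.01 TPM (SD, n = 3), and the log2 fold change was -0.23 (SE 0.12, 95% interval -0.52 to 0.06, adjusted p = 0.271, or 0.0397 with the block). The pair differences were -0.37, -0.20 and -0.12, and the fold change was -0.11 without control replicate 1. DUT was called in the fit with the block alone and in no other of the 8 blocked fits.

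TK1, the cytosolic thymidine kinase of dividing cells, lies at chr17:78174075-78187233 on the - strand and was the most abundant of the 7 in every library of the control and knockdown groups. It stood at 337, 310 and 299 TPM in knockdown and 395, 277 and 288 TPM in control replicates 1, 2 and 3. The log2 differences within pairs were -0.23, 0.16 and 0.05, so the pairs did not share a direction. The means were 315 ± 19.6 and 320 ± 65.2 TPM (SD, n = 3), and the log2 fold change was -0.01 (SE 0.14, adjusted p = 0.984). Its 95% interval, not adjusted over genes, ran from -0.35 to 0.34, and from -0.20 to 0.19 with the block, so a change of TK1 within these limits remains possible. Under median-of-ratios scaling the estimate was 0.09. Against TK2, its mitochondrial counterpart, TK1 was at a ratio of 13.9, 8.97 and 8.90 in knockdown and 14.4, 7.53 and 7.94 in control libraries (log2 difference 0.12, exact permutation p = 0.6, adjusted p = 0.75). TK2 itself had means of 30.8 and 33.5 TPM in knockdown and control libraries (log2 fold change -0.12, adjusted p = 0.683).

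DCK, which phosphorylates deoxycytidine and activates nucleoside drugs such as gemcitabine, lies at chr4:70992538-71030914 (+). Its levels were 25.5, 21.5 and 20.3 TPM in knockdown and 29.2, 25.7 and 24.6 TPM in control replicates 1, 2 and 3. As with DUT, knockdown replicate 1 alone reached into the control range. The means were 22.4 ± 2.72 and 26.5 ± 2.42 TPM (SD, n = 3), and the log2 fold change was -0.23 (SE 0.11, 95% interval -0.51 to 0.04, adjusted p = 0.247, or 0.0268 with the block). The pair differences of -0.19, -0.25 and -0.26 were close to each other. DCK rests on 443 to 518 reads per library, the fewest of the 7 with SAMHD1, which gives a counting error of at most 4.75%. Annotated exons of DCK share 199 bases with MOB1B on the same strand. The ratio of DCK to TK1, the cytosolic kinases of salvage, was 0.0756, 0.0695 and 0.0678 in knockdown and 0.0739, 0.0929 and 0.0851 in control libraries (log2 difference -0.24, exact permutation p = 0.2, adjusted p = 0.5). The direction of this difference depends on GC content, since with the GC correction the log2 fold change was 0.03 for DCK and -0.19 for TK1. DGUOK, the mitochondrial relative of DCK, had means of 100.03 and 105 TPM (log2 fold change -0.07, adjusted p = 0.523, and 0.03 under median-of-ratios scaling).

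SAMHD1, the triphosphohydrolase that lowers deoxynucleotide pools outside S phase, lies at chr20:36889773-36951901 (-). It stood at 11.5, 10.4 and 9.69 TPM in knockdown and at 15.9, 12.5 and 11.9 TPM in control replicates 1, 2 and 3. All knockdown libraries lay below all control libraries, with knockdown replicate 1 close beneath control replicate 3. The means were 10.5 ± 0.901 and 13.5 ± 2.13 TPM (SD, n = 3), or 78.2% of control, and the log2 fold change was -0.32 (SE 0.13, adjusted p = 0.190, or 0.0269 with the block). The enzyme of dNTP breakdown thus fell in the same blocked fit as RRM1, TYMS, DUT and DCK. Of the 8 blocked fits, SAMHD1 was called in 3, TYMS in 4 and DCK in 2. The SAMHD1 call was lost with the GC correction and the block (adjusted p = 0.069). It was also lost under median-of-ratios scaling with the block (adjusted p = 0.073). SAMHD1 shares 1159 exon bases with TLDC2 on the opposite strand, and TLDC2 was at a mean of 9.43 TPM with a log2 fold change of -0.11 (adjusted p = 0.524).

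Across the 7 genes the knockdown groups lay apart below the controls for RRM1 and SAMHD1, 2 of 7, where 22.3% of all genes tested did so. All 3 pairs were lower for 6 of 7, where 43.7% of genes tested were. The members' median log2 fold change was -0.23, beside -0.08 for all genes tested, of which 62.4% were negative. At an unadjusted p under 0.05 without the block there were 2 of 7, again RRM1 and SAMHD1, where 26.1% of genes tested passed, and limma-voom on the recovered reads without the block also called 0 of 7.

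Other annotated overlaps concern 14.5% of DUT exon bases (AC023355.1, opposite strand), 1.51% of RRM1 (RRM1-AS1, opposite strand) and 20.2% of RRM2 (AC007240.1, same strand), and these genes were not analysed here.

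How far each change depended on the correction was compared in blocked fits. Under median-of-ratios scaling RRM1 alone fell (log2 fold change -0.38, adjusted p = 0.00845), where 17.7% of genes tested fell and 46.9% of calls were higher. Transcript GC content moved with the difference between groups: the median log2 fold change of all genes was -0.41 in the lowest of 5 equal bins of GC content, then -0.25, -0.08 and 0.04, and 0.11 in the highest bin. RRM1, RRM2, DUT and SAMHD1, at 43.0, 45.8, 44.2 and 46.0% GC, were in the second bin, TYMS at 49.8% in the third, DCK at 38.8% in the lowest and TK1 at 62.8% in the highest. With this trend removed from each library and the block kept, RRM1 (-0.30, adjusted p = 0.00902) and TYMS (-0.25, adjusted p = 0.0153) fell, where 23.6% of genes tested did. DCK turned to 0.03 (adjusted p = 0.706) and DUT moved to -0.09 (adjusted p = 0.418), whereas TK1 moved to -0.19 (adjusted p = 0.0794) and SAMHD1 was at -0.24 (adjusted p = 0.0690). The order of the 7 genes by fold change therefore differed with the GC correction for DCK and TK1 in particular, the members with the lowest and highest GC content.

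**Figure D3:**
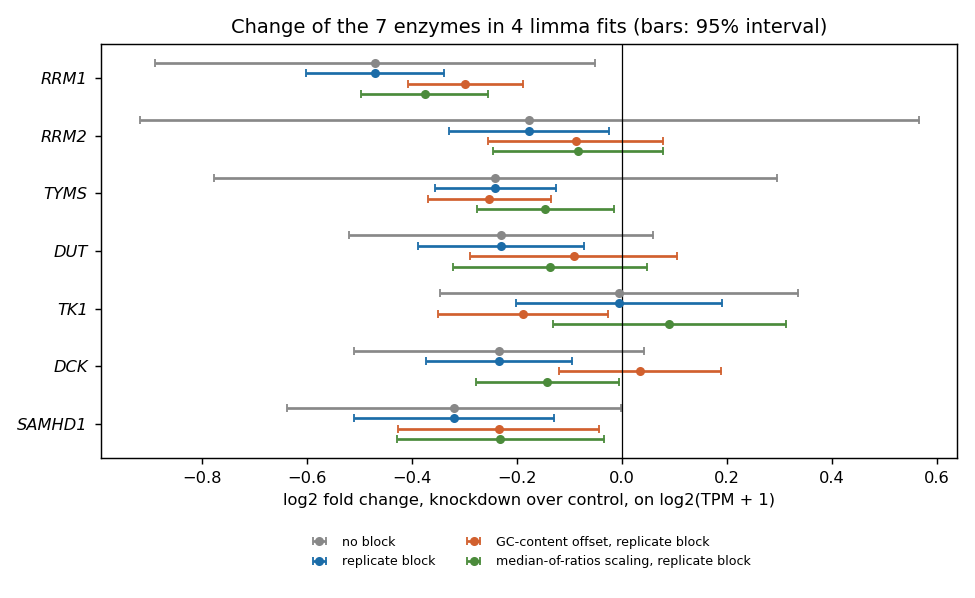
Log2 fold change (x axis, knockdown over control) of each of the 7 genes in 4 limma fits, with bars for the 95% interval. The intervals of RRM1, TYMS and SAMHD1 lie below 0 in all 3 blocked fits shown, and the estimates of TK1 and DCK change side of 0 between fits. The intervals are not adjusted over genes.

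**Figure D4:**
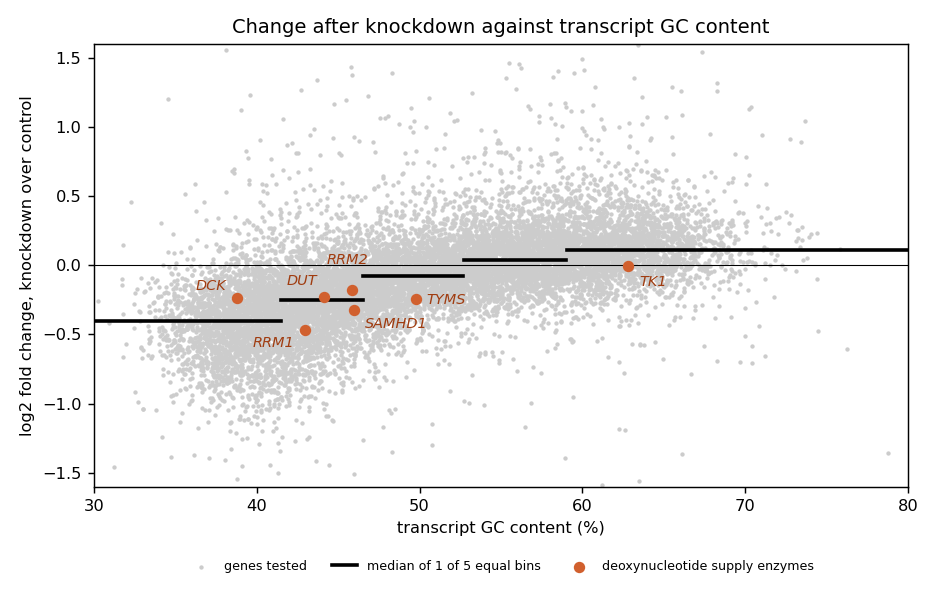
Log2 fold change without the block (y axis) against GC content of the longest coding transcript (x axis, %) for 12962 genes, with 26 genes outside the plotted range. Black lines are medians of 5 equal bins of genes and rise from -0.41 to 0.11, and orange points are the 7 enzymes. RRM1, TYMS, SAMHD1 and TK1 lie below the medians of their bins, and RRM2, DUT and DCK lie above.

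Replicate 1 stood apart from replicates 2 and 3 in the same direction in both groups. RRM2 was higher in replicate 1 than in the mean of the other two by a log2 difference of 0.74 in knockdown and 0.88 in control, and TYMS by 0.53 and 0.64. For RRM1 the differences were 0.51 and 0.37, for TK1 0.15 and 0.48, for DUT 0.16 and 0.37, for SAMHD1 0.18 and 0.35 and for DCK 0.28 and 0.21. For RRM2, TYMS and TK1 the replicate gap in both groups was wider than the difference between conditions, and this is the spread that the block takes up. Over the 6 libraries, which share these replicate and condition differences, Pearson's r of log2(TPM + 1) between members ran from 0.544 (RRM1 with TK1) to 0.989 (RRM1 with DCK), with 0.973 for RRM2 with TYMS and 0.970 for DUT with SAMHD1. Most like RRM1 among all genes tested were KPNB1 and NPM1 (r = 0.999 for both), and most like RRM2 were SRM and POLR3K (0.998 for both). Among the nearest genes were MIX23 and CDK2AP1 for TYMS (0.998 and 0.997), CDCA3 and HMGA1 for DUT (0.994 for both), C19orf48 for TK1 (0.982), GAR1 and CDCA8 for DCK (0.999 and 0.998) and PDE6D and UBE2S for SAMHD1 (0.996 and 0.994).

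The wider list of nucleotide supply held 50 genes, of which 48 were tested, since MTHFD2 and CMPK2 had means under 1 TPM. Without the block 0 of 48 were called by limma and 0 by limma-voom, 17 had an unadjusted p under 0.05, where 26.1% of genes tested did, and 39 had a negative fold change, with a median of -0.18. With the block 22 fell and 3 rose, where 25.0% of genes tested fell and 1390 of 13980 rose. Under median-of-ratios scaling with the block these were 11 and 4, where 17.7% fell and 2182 of 13980 rose. With the GC correction and the block they were 22 and 1, where 23.6% fell and 801 of 12962 rose. Groups lay apart below the controls for 17 of the 48, where 22.3% of genes tested did. They lay apart above the controls for 2, CDA and GUK1, where 1339 of 13980 genes tested did.

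Enzymes listed under de novo nucleotide synthesis gave 11 of the 22 falling genes (of 16 tested, median -0.26), and groups lay apart for 11. Of all genes tested, 25.0% fell with the block, and groups lay apart below the controls for 22.3%. Under median-of-ratios scaling with the block 5 of the 16 fell, where 17.7% of genes tested did. With the GC correction and the block 12 fell, where 23.6% did. PAICS, of the purine ring pathway, had 65.2, 51.2 and 50.2 TPM in knockdown and 90.0, 72.7 and 76.2 TPM in control libraries, so that all knockdown libraries were lower. Its log2 fold change was -0.52 (adjusted p = 0.089, or 0.005 with the block), and it fell in all 8 blocked fits. PPAT, the first committed enzyme of purine synthesis, had means of 13.3 and 21.2 TPM (log2 fold change -0.68, adjusted p = 0.152, or 0.014 with the block, and -0.39 with the GC correction). All 4 reductase partners fell with the block, with a median of -0.34. Besides RRM2B these were TXNRD1, the reductase of thioredoxin (means 1200 and 1583 TPM, log2 fold change -0.41, adjusted p = 0.129, or 0.008 with the block), TXN (-0.13, or 0.041 for its adjusted p with the block) and GLRX (-0.26, or 0.012), of which the last 2 were not chosen by the naming rule and complete the group of 4. Under median-of-ratios scaling with the block 3 of the 4 fell, and with the GC correction and the block 2 fell, with TXN at 0.05.

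Among 6 genes of the thymidylate and folate cycle 3 fell with the block, with a median of -0.19, where 25.0% of genes tested fell. Among them were MTHFD1, a folate enzyme (log2 fold change -0.30, adjusted p = 0.171, or 0.023 with the block) and DTYMK, the thymidylate kinase (log2 fold change -0.23, adjusted p = 0.401, or 0.017 with the block). Under median-of-ratios scaling with the block 0 of the 6 were called, where 17.7% of genes tested fell. MTHFD1 was at an adjusted p of 0.067 and DTYMK at 0.098 in this fit, and the median was -0.09. With the GC correction and the block 3 fell, where 23.6% of genes tested did, and DTYMK was at -0.39. Without control replicate 1, DTYMK was at -0.08. Nucleotide kinases were split with the block, with 2 lower and 1 higher of 5, where 1390 of 13980 genes tested were higher. CMPK1, which phosphorylates CMP and UMP, fell (log2 fold change -0.45, adjusted p = 0.175, or 0.005 with the block), and GUK1, the guanylate kinase, rose (0.17, adjusted p = 0.143, or 0.041 with the block). Both calls were lost with the GC correction and the block, with CMPK1 at -0.16 (adjusted p = 0.140) and GUK1 at -0.01 (adjusted p = 0.901).

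In salvage and transport 1 of 9 genes rose and 1 fell with the block, where 1390 of 13980 genes tested rose and 25.0% fell. CDA, the cytidine deaminase, had 35.5, 40.4 and 41.5 TPM in knockdown and 24.7, 26.9 and 31.6 TPM in control libraries, and all knockdown libraries were higher. The log2 fold change was 0.48 (adjusted p = 0.078, or 0.007 with the block), and CDA rose in all 8 blocked fits. HPRT1, of purine salvage, fell (log2 fold change -0.29, adjusted p = 0.364, or 0.008 with the block) but was at -0.06 with the GC correction and the block (adjusted p = 0.489). Of 8 genes of breakdown and sanitation 1 fell with the block. TYMP, the thymidine phosphorylase, was at 18.7 and 14.6 TPM (log2 fold change 0.31, adjusted p = 0.393, or 0.074 with the block), and in blocked fits at 0.08 with the GC correction (adjusted p = 0.475) and at 0.40 under median-of-ratios scaling (adjusted p = 0.045). The third gene of the list that rose with the block was IMPDH1 (0.15, adjusted p = 0.421, or 0.030 with the block), named after its value was seen, which was at -0.03 with the GC correction and the block.

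**Figure D5:**
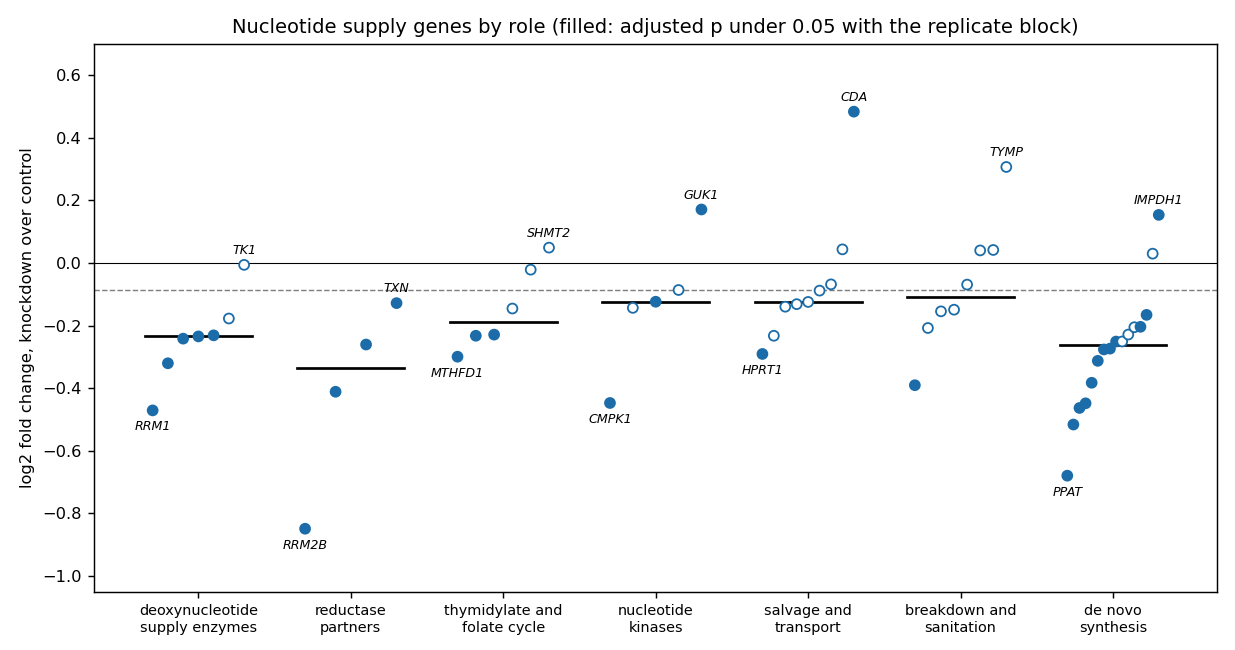
Log2 fold change without the block (y axis) of the 7 enzymes and 48 other nucleotide supply genes, grouped by role (x axis). Filled points have an adjusted p under 0.05 with the replicate block, black bars are group medians, the dashed line is the median of all genes (-0.08), and labels mark the lowest or highest gene of a group. CDA, GUK1 and IMPDH1 are the filled points above 0.

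Cell-cycle genes were lower in the same fits. Of 40 S phase genes tested, the members left out, 39 had a negative fold change, with a median of -0.39, where 62.4% of genes tested were negative. With the block 29 fell, where 25.0% of genes tested did. Without the block 0 were called by limma, and 12 had an unadjusted p under 0.05, where 26.1% of genes tested did. With median-of-ratios scaling or the GC correction beside the block, 25 fell in either fit, where 17.7% and 23.6% of genes tested did. Of 54 G2/M genes 51 were negative, with a median of -0.62, and 50 fell and 1 rose (TUBB4B) with the block, with 1 lower call (CKAP5) without it. The falling G2/M genes numbered 44 under median-of-ratios scaling and 49 with the GC correction, both with the block. The medians of both phase lists were thus lower than the members' -0.23, and the part of the cell cycle in the members' values was not tested.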

How the data were processed

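PolyA-Seq of 6 libraries was used, 3 with cDCBLD2 siRNA and 3 with control siRNA, grouped by the sample labels. The authors deposited TPM per gene, and per the submitters' processing notes fastp 0.20.1, HISAT2 2.1.0, StringTie 2.0 and hg38 were used. The annotation and the strand and multimapping settings are not given in the sources used here, so overlapping genes and near-identical copies are uncertain. The count-based test of the paper was not rerun, since the deposited values are not counts.

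The fit used limma 3.58.1 (R 4.3.3), with its trend option and Benjamini-Hochberg adjusted p, on log2(TPM + 1) of the 13980 genes whose mean reached 1 TPM. Calls used an adjusted p under 0.05 with no fold threshold. Fold changes on this scale understate the change of low genes. The main design has no block, as the paper names none. Same-numbered libraries correlated in their deviations from group means (r = 0.560, 0.343 and 0.362 over genes, others -0.450 to 0.247), so the replicate number was used as a block. The labels do not say what the number stands for.

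Reads were taken as the smallest whole numbers in the ratio of a gene's values across libraries. With a tolerance of 0.001, which widened with the number of reads, 100% of the 17285 genes above 0 in all libraries came out whole. The search ran so far that a share near this was likely in any case, so the share is no check of the reads. Counting errors from these reads cover counting error only. GC content came from GENCODE 29 (92.7% of genes tested) and was removed per library by loess with a span of 0.5. Cell-cycle lists came from Seurat 5.3.0. Within-library ratios used two-sided exact permutation tests. The fit and the read recovery were tested on simulated data. False calls of the fit exceeded the adjusted p threshold there, more so with the block than without it. Blocked calls near the threshold should thus be taken as less certain than their adjusted p. The simulation changed far fewer genes than the block called here. It drew replicate effects independently between genes, whereas replicate 1 was the highest of its group for all members. The size of the excess in these data is therefore not known.

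The members, lists and naming rule were chosen with earlier results of these data known. Named genes are the 7 members, RRM2B, DTYMK, TK2, DGUOK, the 2 genes of largest absolute log2 fold change in each of 6 role groups, the overlapping ENOSF1 and TYMSOS, and the 2 genes most correlated with each member. C2orf48, also in that rule, is not analysed here, and some other genes of the rule, with 1 of the 5 ratios computed, are not reported here. Alternatives were other scalings, filters, pseudocount and gene types, the replicate block, the GC correction, limma-voom on recovered reads and leaving out each library. The other scalings with the block, and the block without a pair, were chosen after seeing the data.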

Additional observations from a re-analysis of the deposited data

How the results depend on the processing

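The number of genes called, 123 without the block, was 4 with no filter on low values, 321 at a mean of at least 5 TPM, 394 for protein-coding genes, 252 with the GC correction and 508 with limma-voom. With the replicate block it was 4891, and 3861 with the GC correction, 5623 with limma-voom, 4652 with median-of-ratios scaling, 4753 with upper-quartile scaling, and 5495, 1500 and 631 without pair 1, 2 and 3. Leaving out 1 library gave 0 to 3420, the latter without knockdown replicate 1, where RRM1 was called (adjusted p = 0.0230). Of the 7 enzymes, 0 without the block, the blocked fits called 5, then 2 with the GC correction, 2 with limma-voom, 1 with median-of-ratios scaling, 2 with upper-quartile scaling and 4, 1 and 1 without pair 1, 2 and 3, and leaving out 1 library gave 0 to 1. Of the wider list, 0 without the block, these were 25, 23, 17, 15, 20, and 28, 7 and 4, and 0 to 11 without 1 library. The block without a pair and the 2 other scalings with the block were chosen after seeing the data.

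Signs turned for RRM2 without control replicate 1 (0.12, range over left-out libraries -0.42 to 0.12), and for TK1 with upper-quartile scaling (0.065, also with the block), median-of-ratios scaling (0.090, also with the block), limma-voom (0.091, both with and without the block), the block without pair 1 (0.11) and without single libraries (-0.10 to 0.15). DCK with the GC correction was at 0.035 and GUK1 at -0.0072, both also with the block. TK2 ranged from -0.26 to 0.034 over left-out libraries, the latter without knockdown replicate 1. DGUOK was at 0.0025 with upper-quartile scaling, 0.027 with median-of-ratios scaling, and 0.026 with limma-voom, blocked or not. Over left-out libraries the TK1 to TK2 difference ranged from -0.091 to 0.42, negative without knockdown replicate 1 or control replicates 2 or 3. The cause was not tested. Over left-out libraries TYMS ranged from -0.42 to -0.03, DUT from -0.31 to -0.11, DCK from -0.33 to -0.16 and SAMHD1 from -0.39 to -0.20, each smallest without control replicate 1. RRM1 stayed negative in all 23 alternatives, between -0.64 and -0.30. A counting error of at most 4.75% per library was smaller than the spread between libraries for each of the 7 genes.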
